A study of Homo sapiens with 8 samples.

Results

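The mitochondrially encoded mRNAs described here are 10 protein-coding genes of the human mitochondrial chromosome (chrM): MT-ND1, MT-ND2, MT-ND4, MT-ND5, MT-ND6, MT-CYB, MT-CO1, MT-CO2, MT-CO3 and MT-ATP6. They were chosen by name among the chrM genes that both deposited tables list. The mitochondrial mRNAs MT-ND3, MT-ND4L and MT-ATP8 are not among the 10. The short-read table holds 35 chrM loci among its 62727 genes, and the 10 members fell into 9 of these loci. The long-read table holds 43 chrM transcripts among 301869, with a reference transcript for each of the 10 members. All libraries came from HAP1, an established human line of leukemic origin whose cells are nearly haploid, grown in culture with no other treatment. Nuclei were obtained by detergent lysis and extracted with urea and NP-40 substitute. The pellet after centrifugation was the chromatin fraction, and the supernatant was the nucleoplasm fraction. There were 3 chromatin and 3 nucleoplasm short-read libraries from 3 independent cultures, and 2 long-read libraries of chromatin RNA. ERCC spike-in RNA went into every fraction, and all RNA was depleted of ribosomal RNA. One label field names chromatin for all 8 libraries, so the fraction was read from the sample titles.

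Human mitochondria carry their own small circular genome, which is transcribed from both strands into long precursors. The tRNAs that lie between most of the genes are cut out, and this releases the mRNAs and rRNAs. Most mRNAs, both rRNAs and most tRNAs are read from the heavy strand as template and appear on the plus strand of the reference. MT-ND6 is the mRNA read from the light strand as template and appears on the minus strand, where most of the transcribed sequence is non-coding and is degraded. The proteins are core membrane subunits of respiratory chain complexes I, III and IV and of the ATP synthase. These RNAs are made and used inside mitochondria, outside the nucleus.

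The layout of the genes set what could be measured, and the sequences below show the places where it did. They are from hg38, whose chrM has 16569 bases, the largest chrM coordinate in the tables. MT-ATP8, MT-ATP6 and MT-CO3 lie head to tail with no tRNA between them, and the assembler joined them into 1 short-read locus (MSTRG.34542, plus strand, chrM:8366-9990). MT-ATP8 and MT-ATP6 share 46 bases, in capitals in the first sequence (chrM:8515-8584, plus strand). MT-ATP6 and MT-CO3 share 1 base, in capitals in the second (chrM:9177-9236, plus strand). MT-ND4L and MT-ND4 share 7 bases, in capitals in the third (chrM:10735-10791, plus strand). These 2 genes also formed 1 locus (MSTRG.34546, chrM:10470-12137).
MT-ATP8/MT-ATP6: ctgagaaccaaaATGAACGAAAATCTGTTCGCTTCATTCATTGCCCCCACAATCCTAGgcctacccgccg
MT-ATP6/MT-CO3: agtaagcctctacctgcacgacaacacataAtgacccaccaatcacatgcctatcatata
MT-ND4L/MT-ND4: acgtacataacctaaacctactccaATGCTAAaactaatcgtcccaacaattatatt

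MT-ND5 and MT-ND6 meet end to end on opposite strands. In the first sequence below (chrM:14119-14178, plus strand), the last 30 bases of MT-ND5 are in capitals and the last 30 of MT-ND6 follow in lower case, read on the opposite strand to its mRNA. The starts of MT-ND6 (chrM:14614-14673, minus strand) and of its neighbour MT-CYB (chrM:14747-14806, plus strand) are given in the sense of their mRNAs, with the first codon in capitals. They show the difference in base composition between the strands. The MT-ND6 coding sequence was 35.6% G and 7.05% C. In the 9 plus-strand members, G was between 9.50% (MT-ND2) and 16.2% (MT-CO1), and C between 30.03% (MT-CO1) and 36.0% (MT-ND1). In 5 of the 10 members (MT-ND1, MT-ND2, MT-ND4, MT-CO3 and MT-CYB) the annotated length was not a multiple of 3, and such genes are known to have their stop codon completed by the poly(A) tail.
MT-ND5/MT-ND6: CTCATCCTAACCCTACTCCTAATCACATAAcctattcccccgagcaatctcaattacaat
MT-ND6: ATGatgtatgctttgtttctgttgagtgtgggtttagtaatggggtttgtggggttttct
MT-CYB: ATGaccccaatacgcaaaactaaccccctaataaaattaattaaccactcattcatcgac

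Short-read depth was taken as the sum of all gene counts, ERCC standards included, recovered as whole numbers from the normalized values. These counts, which the study derived from StringTie estimates of abundance, are called reads here and are not numbers of sequenced reads. Depth was 38895027 to 43804918 per chromatin library and 75737601 to 79523938 per nucleoplasm library. The long-read values are TPM, which hold no read numbers, so no counting error is given for them. The fraction markers went with the sample titles. MALAT1 and PVT1, which are retained in the nucleus, had log2 fold changes (chromatin minus nucleoplasm) of 3.09 and 3.11. GAPDH, B2M and ACTB, whose mRNAs are mostly cytoplasmic, had -2.35, -2.11 and -1.95. The part of these cytoplasmic mRNAs in the results below was not tested.

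Mitochondrial RNA took up a larger part of the nucleoplasm libraries. Reads in chrM loci made up 0.528%, 0.425% and 0.447% of all reads in chromatin replicates 1 to 3, and 1.21%, 1.07% and 1.04% in nucleoplasm replicates 1 to 3. The fractions did not overlap. Chromatin had a mean of 0.467% ± 0.0544 and nucleoplasm one of 1.11% ± 0.0944 (SD, n = 3 each). An exact two-sided permutation test gave p = 0.1, the smallest value 3 against 3 libraries allow. The 9 member loci alone held 0.207% ± 0.01002 of reads in chromatin and 0.534% ± 0.0402 in nucleoplasm. The number of mitochondria carried into a fraction and the RNA per mitochondrion cannot be told apart in these libraries.

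Of the 9 member loci, 8 were lower in chromatin and MT-ND6 was not. These were all 8 loci on the plus strand. Their log2 fold changes ranged from -2.60 to -0.60, which is a range of 6.06-fold to 1.52-fold in the ratio of the means. All 8 had an adjusted p-value under 0.05 (limma on log2(normalized count + 1), Benjamini-Hochberg over 26066 genes), beside 45.2% of all tested genes that were lower in chromatin at this threshold. In all 8, every chromatin library was below every nucleoplasm library, beside 46% of all tested genes. Past 4-fold as well, 2 of the 9 were called, beside 8.47% of all tested genes. MT-ND6 had the one positive value and was not called (limma adjusted p = 0.442, edgeR 0.285, DESeq2 0.0956), beside 44.2% of all tested genes that were higher at this threshold. Nucleoplasm replicate 1 was the highest of the nucleoplasm libraries at all 9 loci. The median over the 9 loci was -1.45, and that of all tested genes was -0.02.

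**Figure D1:**
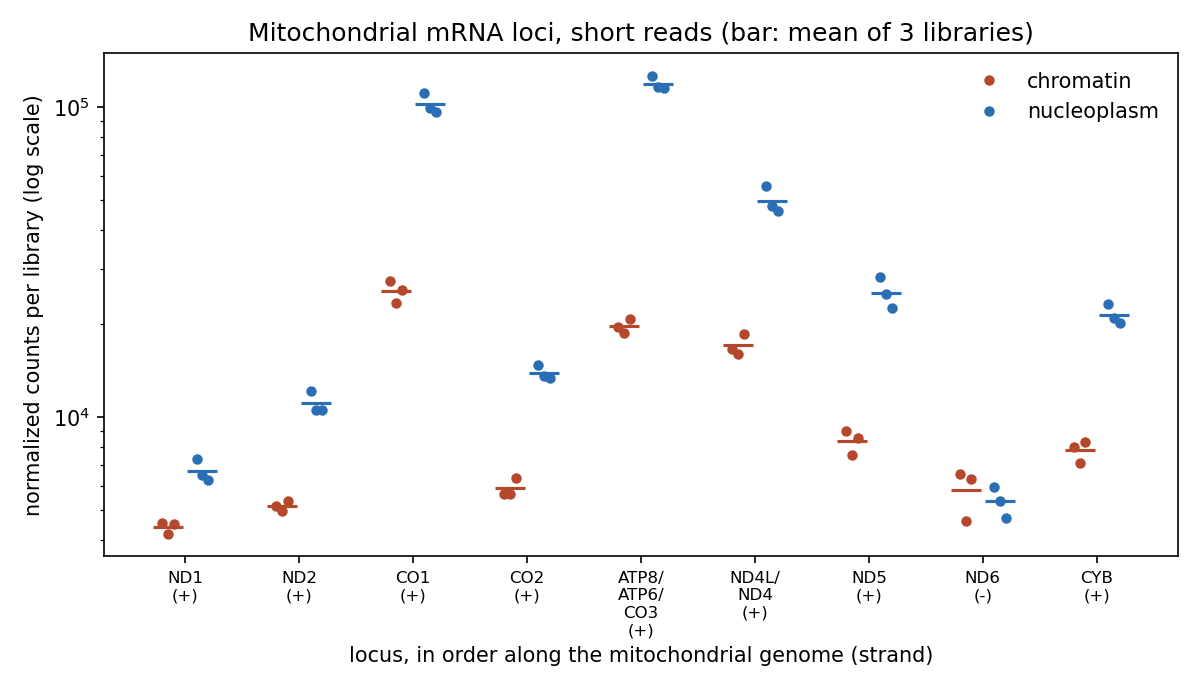
Normalized counts (log scale) of the 9 member loci in each of the 3 chromatin and 3 nucleoplasm short-read libraries, with the strand in brackets and the mean as a bar. The fractions are separate at the 8 plus-strand loci and overlap at MT-ND6, where the means are 5834 and 5349.

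The locus of ATP synthase and cytochrome oxidase subunits showed the largest difference. It holds MT-ATP8 and MT-ATP6, which are parts of the ATP synthase membrane domain, and MT-CO3, a core subunit of complex IV. It had 19505, 18726 and 20693 normalized counts in chromatin replicates 1 to 3. In nucleoplasm replicates 1 to 3 it had 126013, 115956 and 114865. The fractions were far apart, by -2.60 on the log2 scale (SE 0.06, limma adjusted p = 1.02e-08). Because the genes share a locus, the short reads give no separate value for MT-ATP6 or MT-CO3.

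The other core subunits of complex IV, cytochrome oxidase, differed from each other. MT-CO1 (chrM:5904-7445), which holds the site where oxygen is reduced, had 27556, 23262 and 25748 normalized counts in chromatin. It had 110755, 99216 and 96409 in nucleoplasm. All nucleoplasm libraries were above all chromatin libraries, by a log2 difference of -2.001 (SE 0.08, limma adjusted p = 4.68e-08). This value lay at the 4-fold limit, and the 4-fold call was lost in 5 of 15 alternative fits, namely edgeR (-1.97), DESeq2 (-1.91), equal totals (-1.54), leaving out chromatin replicate 2 (-1.94) and leaving out nucleoplasm replicate 1 (-1.94). MT-CO2 (chrM:7586-8269), which takes electrons from cytochrome c, had 5658, 5666 and 6371 counts in chromatin against 14772, 13587 and 13389 in nucleoplasm. It was separate in the fractions as well, at -1.24 on the log2 scale (SE 0.06, limma adjusted p = 1.88e-07).

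Complex I, the NADH dehydrogenase, takes 5 of the 10 members, of which 4 are on the plus strand. MT-ND1 (chrM:3307-4262), the first mRNA after the rRNAs, had 4546, 4213 and 4517 counts in chromatin against 7330, 6518 and 6287 in nucleoplasm. Its fractions were separate, and its difference of -0.60 on the log2 scale (SE 0.07, limma adjusted p = 2.76e-05) was the nearest to 0 among the plus-strand members. After scaling libraries to equal totals it was -0.13 and not past the threshold (limma adjusted p = 0.0780). MT-ND2 (chrM:4470-5511) had 5157, 4968 and 5375 counts in chromatin against 12104, 10573 and 10524 in nucleoplasm, again without overlap, at -1.10 on the log2 scale (SE 0.06, limma adjusted p = 4.46e-07).

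The loci of MT-ND4 and MT-ND5, further along the same strand, lay close to each other in their difference. The locus of MT-ND4L and MT-ND4 had 16631, 15946 and 18475 counts in chromatin against 55518, 48036 and 46282 in nucleoplasm, at -1.55 on the log2 scale (SE 0.08, limma adjusted p = 2.49e-07). MT-ND5 (chrM:12337-14148), whose protein sits at the far end of the membrane arm, had 9005, 7537 and 8531 counts in chromatin against 28216, 24872 and 22565 in nucleoplasm, at -1.59 (SE 0.09, limma adjusted p = 4.41e-07). Both were separate in the fractions. MT-CYB (chrM:14747-15887), cytochrome b of complex III, stood near them. It had 8002, 7110 and 8305 counts in chromatin against 23082, 20945 and 20124 in nucleoplasm, also without overlap, at -1.45 on the log2 scale (SE 0.07, limma adjusted p = 1.82e-07).

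MT-ND6 (chrM:14149-14673, minus strand), the complex I subunit on the other strand, stood apart. It had 6570, 4630 and 6303 counts in chromatin against 5968, 5351 and 4728 in nucleoplasm. The libraries of the fractions overlapped, with chromatin replicate 2 below all 3 nucleoplasm libraries. The difference was 0.11 on the log2 scale (SE 0.14, limma adjusted p = 0.442). Without chromatin replicate 2 it was 0.27 (limma adjusted p = 0.0227), and after scaling libraries to equal totals it was 0.58 (limma adjusted p = 0.00197). After scaling to equal ERCC totals it changed sign to -1.21 (limma adjusted p = 2.36e-09), while the median of all tested genes moved to -1.33. The limma fit draws the variance of a gene toward that of all genes. An error in the ERCC total of a library is shared by all genes, so this p-value may be too small. Relative to the median of all tested genes, MT-ND6 was higher by 0.13 in the reported fit, by 0.12 under ERCC scaling and by 0.14 under equal totals. The genes that enter the median move this value: MT-ND6 stood at -0.17 relative to it with no filter on low values and at 0.36 when genes whose mean was under 50 were left out. All 8 plus-strand loci were below the median under the reported, ERCC and equal-total scalings, with medians of their own of -1.50, -2.83 and -1.04.

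**Figure D2:**
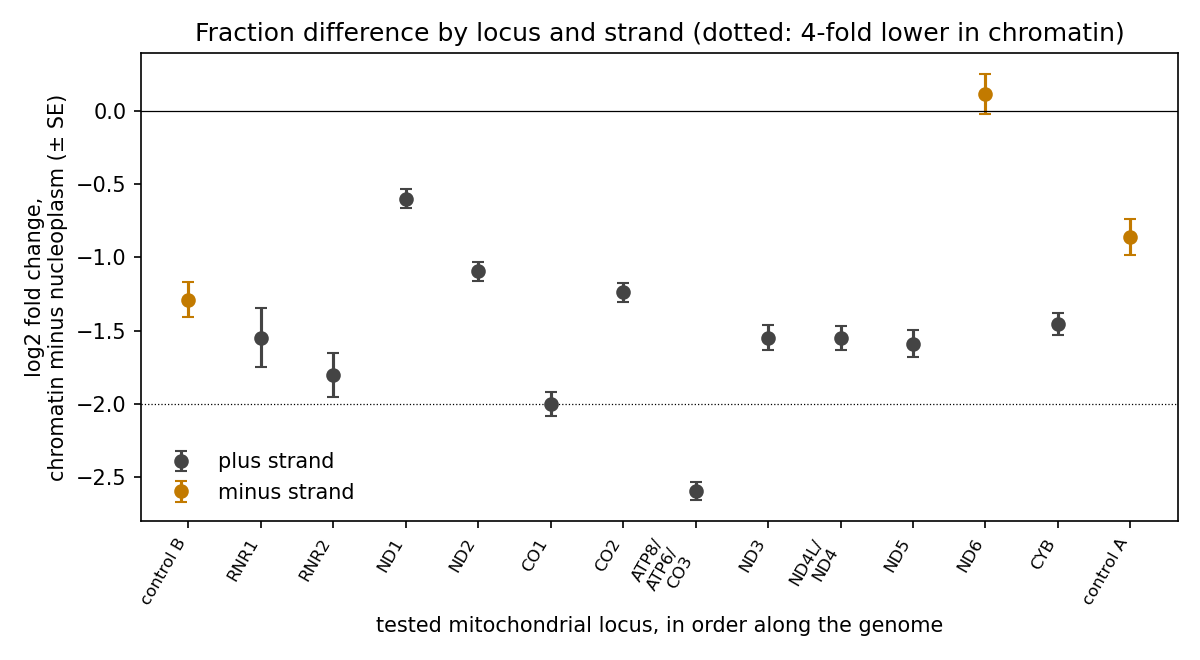
Log2 fold change (chromatin minus nucleoplasm, ± SE) of the 14 tested mitochondrial loci in genome order, coloured by strand, with a dotted line at 4-fold lower in chromatin. MT-ND6 is at 0.11, and the plus-strand loci lie between -2.60 and -0.60.

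The difference of MT-ND6 from the plus-strand loci was then measured within each library, where scaling between libraries has no effect. The log2 ratio of MT-ND6 to the mean of the 8 plus-strand loci was -0.87, -1.24 and -0.96 in chromatin replicates 1 to 3. It was -2.98, -2.99 and -3.13 in nucleoplasm replicates 1 to 3. All chromatin libraries were higher than all nucleoplasm libraries. The means were -1.02 ± 0.19 and -3.03 ± 0.08 (SD, n = 3 each), a difference of 2.01 or 4.03-fold, with an exact two-sided permutation p = 0.1, the smallest possible. Against MT-CYB alone, the neighbouring mRNA, the difference was 1.57, or 2.97-fold. As a share of the reads in member loci, MT-ND6 took 5.82% ± 0.712 in chromatin and 1.51% ± 0.0822 in nucleoplasm.

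The same within-library comparison showed that the plus-strand loci differed among themselves too. Each locus was set against the mean log2 value of the 8 plus-strand loci of its library, which include it on the plus strand. The differences of these 8 loci therefore cancel out, so both signs had to occur, and their p-values are not independent. The ATP8/ATP6/CO3 locus was lower in chromatin by this measure, with a difference of -1.08 against a pooled SD of 0.03. MT-CO1 had -0.49 (SD 0.05). MT-ND1 had 0.92 (SD 0.02), MT-ND2 0.42 (SD 0.03) and MT-CO2 0.28 (SD 0.06), all in the other direction. For these 5 loci, for MT-CYB (0.06, SD 0.02) and for MT-ND6 (1.63, SD 0.15) the exact two-sided permutation p was 0.1, which was 0.129 after Benjamini-Hochberg adjustment over 9 loci. The differences of MT-ND5 (-0.07, SD 0.07, exact permutation p = 0.2) and of the ND4L/ND4 locus (-0.04, SD 0.04, exact permutation p = 0.4) were close to or within the spread between libraries. The ATP8/ATP6/CO3 locus went from 19.7% ± 0.675 of the reads in member loci in chromatin to 33.6% ± 0.718 in nucleoplasm, while MT-CO1 had 25.6% ± 1.12 and 28.8% ± 0.0590.

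The other tested minus-strand RNA was lower in chromatin. Outside the tRNAs, the minus strand held 2 further loci, both in the non-coding control region, where transcription of the mitochondrial genome starts. The locus at chrM:16024-16569 had 9968, 7192 and 10163 counts in chromatin against 16903, 15707 and 16403 in nucleoplasm, at -0.86 on the log2 scale (SE 0.12). The locus at chrM:1-501 had 7630, 5751 and 8175 in chromatin and 18120, 16795 and 17209 in nucleoplasm, at -1.29 (SE 0.12). Both were lower in chromatin (limma adjusted p = 0.000159 and 8.44e-06), within the range of the plus-strand members. All minus-strand loci together held 9.44%, 9.18% and 11.8% of the chrM reads in chromatin, and 5.38%, 5.69% and 5.79% in nucleoplasm. The fractions did not overlap, and the difference was 4.54 percentage points, or 2.84 without MT-ND6 (exact two-sided permutation p = 0.1 for both). With the rRNAs left out of the chrM reads, the minus strand held 19.2% ± 1.94 in chromatin and 10.5% ± 0.282 in nucleoplasm, a difference of 8.77 percentage points (exact two-sided permutation p = 0.1).

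**Figure D3:**
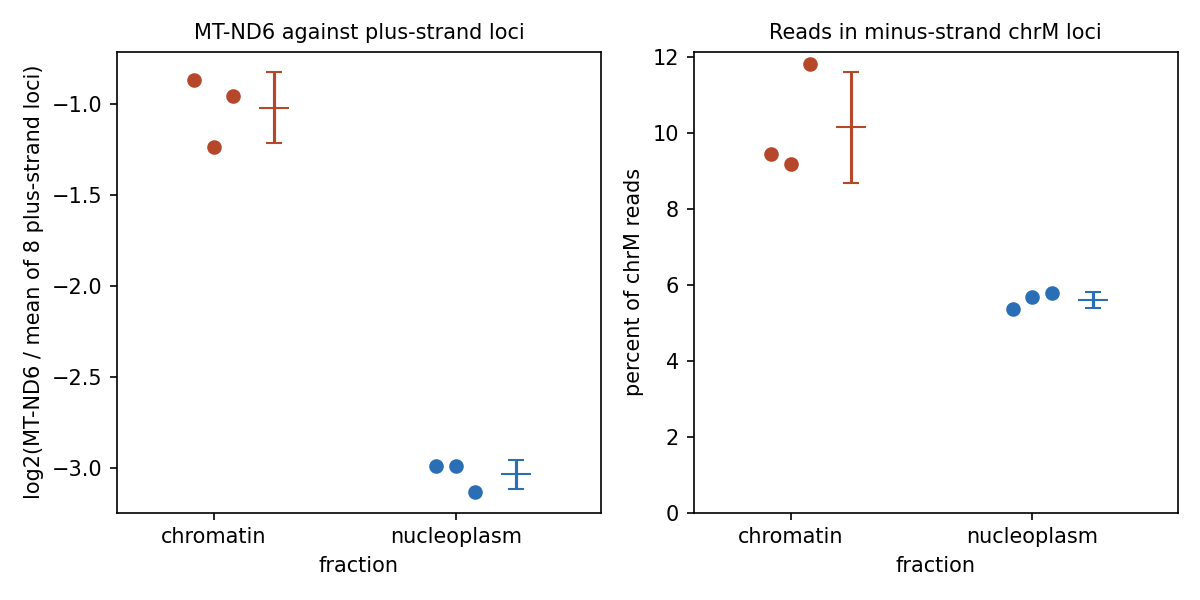
Left, log2 ratio of MT-ND6 to the mean of the 8 plus-strand loci; right, percent of chrM reads in minus-strand loci (axis from 0), in each short-read library, with mean and SD beside the points. Chromatin libraries lie at -1.24 to -0.87 and at 9.18% to 11.8%, and nucleoplasm libraries at -3.13 to -2.98 and at 5.38% to 5.79%.

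MT-ND3 and the rRNAs, on the plus strand, had differences within the range of the plus-strand members, and some plus-strand tRNAs did not. MT-ND3, a small complex I subunit outside the 10 members, had 987 ± 92.4 counts in chromatin against 2886 ± 226 in nucleoplasm, at -1.55 on the log2 scale (SE 0.08). The rRNAs of the mitochondrial ribosome, MT-RNR1 and MT-RNR2, had -1.55 (SE 0.20) and -1.80 (SE 0.15). Their chromatin values were the least even, with 66614 normalized counts of MT-RNR1 in replicate 1 and 41172 and 38609 in replicates 2 and 3. The part of the ribosomal RNA depletion in these values was not tested. The 21 tRNA loci were too short to be tested and held 2 to 1742 reads per library. Of these, 16 had all chromatin libraries below all nucleoplasm libraries, beside 46% of all tested genes. The other 5, all on the plus strand, overlapped, and some of them held few reads (2 to 15 per library for MT-TR). The ratio of the nucleoplasm to the chromatin mean ranged from 0.981 (MT-TK) to 6.02 (MT-TV) over the 14 plus-strand tRNA loci, and from 1.66 to 4.25 over the 7 on the minus strand.

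Per length, the members did not keep the same order in the fractions. In chromatin, MT-CO1 was highest at 16551 ± 1398 normalized counts per kilobase (SD, n = 3). It was separate from the ATP8/ATP6/CO3 locus, the next, at 12087 ± 609. The range of this locus overlapped that of MT-ND6 (11113 ± 2003), which overlapped that of the ND4L/ND4 locus (10202 ± 784). MT-CO2 (8623 ± 599) came next, and its range overlapped that of MT-ND6 but not that of the ND4L/ND4 locus. MT-CYB (6841 ± 545) was separate from the loci beside it, and MT-ND2 (4958 ± 195) from MT-CYB and MT-ND1. MT-ND1 (4629 ± 193) and MT-ND5 (4612 ± 413) were lowest and overlapped, and the range of MT-ND5 also overlapped that of MT-ND2.

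In nucleoplasm the ATP8/ATP6/CO3 locus (73197 ± 3782 per kilobase) and MT-CO1 (66230 ± 4931) were highest and overlapped. The ND4L/ND4 locus followed at 29943 ± 2941. MT-CO2 (20345 ± 1094) and MT-CYB (18741 ± 1338) overlapped, and MT-ND5 had 13917 ± 1568. MT-ND2 (10621 ± 862) and MT-ND6 (10188 ± 1181) overlapped. Without nucleoplasm replicate 1, 1 of these 3 overlaps was left. MT-ND1 was lowest at 7021 ± 573. By its mean, MT-ND6 ranked 3 of 9 in chromatin, where its range overlapped those of ranks 2, 4 and 5, and 8 of 9 in nucleoplasm.

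The long-read libraries give the same RNAs as TPM, which is already per length, in chromatin only, with 2 libraries. No test was run on them. The reference transcripts of the 10 members summed to 1359 and 1039 TPM in replicates 1 and 2, out of 4489 and 4047 TPM for all chrM transcripts. MT-CO1 had 270.04 and 185 TPM and MT-CO2 320 and 139. MT-ATP6 had 158 and 155 and MT-CO3 129 and 135. These were separate entries, but that of MT-ATP6 also spanned MT-CO3, so its value is not for MT-ATP6 alone. MT-CYB had 266 and 143, MT-ND5 89.7 and 169, MT-ND2 56.7 and 61.6, and MT-ND1 37.4 and 37.5. The ratio of replicate 1 to replicate 2 was near 1 for MT-ND1, MT-ND2, MT-ATP6 and MT-CO3. It was 2.31 for MT-CO2, 2.15 for MT-ND4, 1.90 for MT-ND6, 1.87 for MT-CYB, 1.46 for MT-CO1 and 0.530 for MT-ND5.

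In the long-read table, several reference identifiers had spans that ran past the gene. The MT-ATP6 entry ran from 8527 to 9990, to the end of MT-CO3. The MT-ND4L entry covered the whole ND4L/ND4 locus and had 203 and 182 TPM, while MT-ND4 had 27.6 and 12.9. Mature mRNAs that carry ATP8 with ATP6, and ND4L with ND4, are well known. The MT-CO2 entry ended at 8294, after the gene, and the MT-ND5 entry at 14673, which takes in the whole of MT-ND6 on the opposite strand. Where genes shared a span, TPM was therefore summed by locus for the comparison with short reads.

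MT-ND6 differed most between the platforms. Its reference transcript had 3.83 and 2.01 TPM, the lowest of the members, whereas its short-read value per kilobase in chromatin ranked 3 of 9. Over the same bases, 4 unnamed minus-strand transcripts were listed, with spans from 576 to 14673 and from 5761 to 15955. These summed to 740 and 788 TPM. The exons of these transcripts are not in the table, and the direct cDNA preparation does not mark the strand. The study strands long reads by computation, and whether this table was made after that step is not stated, so the strand of long-read transcripts is given as listed. Minus-strand transcripts held 49.0% and 46.0% of the long-read chrM TPM, and the 2 transcripts in the control region held 28.4% and 22.9%. Across the 9 loci, which are not independent replicates, Pearson's r of log2 long-read TPM and log2 short-read counts per kilobase in chromatin was 0.13 (Spearman's rho 0.50). It was 0.78 (rho 0.81) over the 8 loci without MT-ND6, and 0.75 (rho 0.80) with all same-strand transcripts over a locus summed. The points share the same libraries, and these values are given as a description.

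**Figure D4:**
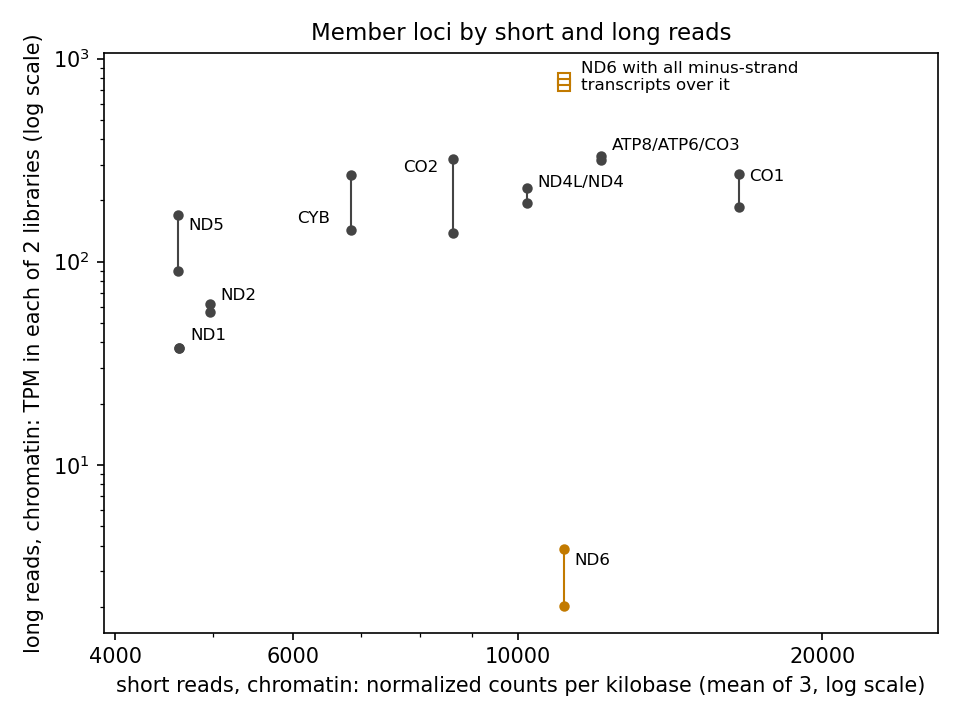
Long-read TPM in each of 2 libraries against the mean short-read normalized count per kilobase in chromatin, both on log scales, for the 9 member loci, with the libraries of a locus joined by a line. MT-ND6 is at 3.83 and 2.01 TPM, and the open squares show it at 744 and 790 TPM when all minus-strand transcripts over it are added.

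Nuclear copies of the members are annotated as pseudogenes, and whether short reads were split between them and chrM was not tested. Copies were found by gene name, so a copy inside a merged or unnamed locus may not be counted here. Of 350 copies found by name, 28 were tested, of which 10 were lower and 17 higher in chromatin (limma adjusted p under 0.05). Among all tested genes, 45.2% were lower and 44.2% higher at this threshold. The 350 named copies together held 16.1% as many normalized counts as the member loci in chromatin and 14.6% in nucleoplasm. Most of these counts were in MTCO1P12 (9764 and 40076, log2 fold change -2.04 against -2.001 for MT-CO1).

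The genes with profiles most like the members were sought over the 6 short-read libraries among 16538 tested genes off chrM whose mean was 100 normalized counts or more. The measure was the root mean square difference of centred log2 values. For the plus-strand members, the nearest were HSPA13 (0.0307), PPP2CB (0.0324), TIPRL (0.0356), the unnamed MSTRG.24958 (0.0377) and FAM20B (0.0407). For MT-ND6 they were RN7SKP48 (0.0610), MTND6P4 (0.0818), DYRK3 (0.0917), F3 (0.0948) and GEM (0.0968). MTND6P4 is a nuclear copy of MT-ND6 and had 219 and 222 normalized counts in chromatin and nucleoplasm.

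Nuclear genes supply the rest of these complexes and the machinery that makes and degrades the mitochondrial RNAs. Of 79 listed genes for nuclear-encoded subunits, 62 were tested. Of these, 59 were lower in chromatin and 2 higher at an adjusted p-value under 0.05, beside 45.2% lower and 44.2% higher among all tested genes. Their median log2 fold change was -2.05, against -0.02 for all tested genes. The lowest were NDUFS5 (-3.18) and ATP5ME (-2.998), subunits of complex I and the ATP synthase. The highest were NDUFV3 (0.95) and NDUFA4L2 (0.32, limma adjusted p = 0.0577). Of the 62, 33 were past 4-fold lower, beside 8.47% of all tested genes. The median of the 8 plus-strand member loci was -1.50.

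The list of mitochondrial gene expression held 37 genes, of which 30 were tested. At an adjusted p-value under 0.05, 19 were lower in chromatin and 9 higher, beside the same 45.2% and 44.2% of all tested genes, with a median of -0.62 against -0.02. POLRMT, the RNA polymerase of mitochondria, had -0.92, TFAM, which packages and helps transcribe the genome, -0.88, and LRPPRC, which stabilizes the mRNAs, -0.65. The lowest were TACO1 (-1.79), a translation activator of MT-CO1, PTCD1 (-1.72) and TRUB2 (-1.49). The highest were MTERF4 (1.07), FASTKD1 (1.02) and MTERF2 (0.95), of families that act on mitochondrial transcription and RNA. The 9 higher calls depend on the scaling: after scaling to equal ERCC totals, 27 of the 30 genes were called lower. Under that scaling 61 of the 62 subunit genes were lower.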

How the data were processed

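HAP1 nuclear RNA was measured in 6 short-read and 2 long-read libraries. Per the study's methods, the authors aligned short reads with HISAT2 2.1.0 to hg38 plus the 92 ERCC sequences, assembled and merged transcripts with StringTie, and counted genes per library. The authors deposited these counts after division by size factors from DESeq2, which is a normalized signal per gene. Long reads were aligned by the authors with minimap2, and TPM from StringTie was deposited for each transcript. Whether reads were assigned to strands before that is not stated.

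All nonzero short-read values (100%, within 0.01) came out whole when divided by the lowest nonzero value of the same library, taken as 1 count. This gave the recovered gene counts that are called reads here. Genes were named with GENCODE release 44, by stable ID or, for assembled loci, by the same-strand gene with the largest span Jaccard index, at least 0.5. Genes with at least 10 normalized counts in 3 libraries and a span over 200 bases were tested (26066), ERCC standards excluded, with limma 3.58.1 in R 4.3.3 (mean-variance trend, log2(normalized count + 1), no covariates, Benjamini-Hochberg). With this pseudocount, the change of low genes is understated. A call needed an adjusted p-value under 0.05 and, where stated, over 4-fold. Alternatives were edgeR 4.0.16, DESeq2 1.42.0, other scalings, pseudocounts, filters, a replicate term and leaving out each library, and the limma, edgeR and DESeq2 fits were tested on simulated data. The limma p-values rest on the spread between the 3 cultures, with the variance of each gene drawn toward a trend over all genes. An error in the scaling of a library is shared by all its genes, and these p-values do not fully cover it. Single values were compared by exact permutation over libraries (scipy 1.17.1). Named genes were the members, the other chrM loci, the lowest and highest genes of the lists, and the 5 nearest profiles. The members and lists were chosen with earlier results of these data known. All value columns belonged to a library.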

Additional observations from a re-analysis of the deposited data

How the results depend on the processing

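All 8 plus-strand loci stayed lower in chromatin in every fit, and of 135 values of a member locus under an alternative, 131 kept their direction and their side of the adjusted p threshold. The exceptions were MT-ND1 with the same total (-0.13, no longer past it), MT-ND6 with the same total (0.58) and without chromatin replicate 2 (0.27), both now past it, and MT-ND6 with the same ERCC total (-1.21, reversed). The number of member loci past 4-fold, 2 in the reported fit, was 1 with edgeR, 1 with DESeq2, 1 with the same total, 7 with the same ERCC total, 7 past a 2-fold minimum, and 1 to 2 with a library left out (1 without chromatin replicate 2 and 1 without nucleoplasm replicate 1). Genes called higher in chromatin numbered 5531, and 2957 with a mean of at least 50, 3107 with the same ERCC total and 8398 past 2-fold. Genes called lower numbered 2208, and 8968 with the same ERCC total, 999 with the same total and 7006 past 2-fold. With the same ERCC total and the same total, the median was -1.94 and -0.16 for the mitochondrial gene expression list and -3.38 and -1.59 for the nuclear-encoded subunits, and 0 genes of either list were called higher by limma in chromatin with the same ERCC total (9 and 2 in the reported limma fit). Overlapping same-strand transcripts raised the long-read sum of members from 1199 to 2191 TPM. Pairs of neighbours not separated in nucleoplasm, 3 of 8, were 1 to 3 with a library left out (1 without nucleoplasm replicate 1). The difference between fractions in the log2 ratio of MT-ND6 to plus-strand loci lay between 1.57 and 2.12 under its alternatives. Same-numbered libraries correlated at 0.09, 0.05 and 0.06 in their deviations, and every library correlated best with its own number. Both fractions came from the same 3 cultures, but whether equal numbers mark the same culture is not stated. The reported fit and permutation tests were therefore unpaired. With pairs by number, an exact sign-flip test gave p = 0.25 for the chrM share, the MT-ND6 ratio and the minus-strand share. This is the smallest value that 3 pairs allow. With a replicate block, 5540 and 2218 genes were called and 8 member loci stayed lower, 2 past 4-fold. Depth limits the tRNA loci, and TPM holds no read numbers for the long reads. Causes were not tested.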
